A study of Mus musculus with 6 samples.

Results

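The genes described here belong to glucose breakdown, to the pentose phosphate branch that leaves it, to pyruvate use and to the response to low oxygen. They were followed in cells labelled as regulatory T cells (Treg). The cells of 1 group came from mice in which the gene of the histone acetyltransferase p300, Ep300, is floxed for deletion in Foxp3-expressing cells, and those of the other from controls. The list names 38 genes, and a gene was measured where the platform annotation gave its symbol as the only symbol of a probe set, with the brightest probe set standing for the gene. That held for 33 of the 38, Gapdh among them by control probe sets alone, and 31 of the 33 were among the 8675 genes tested. With control probe sets left aside, 12393 genes on the array had such a probe set. Ero1l was read under its current symbol, Ero1a. Gpi1, Eno1, G6pdx, Ankrd37 and Bnip3l had no such probe set and were not analysed here, 3 probe sets for Bnip3l being shared with a pseudogene. Gapdh was represented by 3 control probe sets, which stay outside the test, and Vegfa was too dim to test.

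The p300-deleted group consisted of 3 samples of genotype fl-p300/Foxp3cre, in which a Cre recombinase driven from Foxp3 removes a floxed p300 allele, so that deletion is directed to cells that express Foxp3. The control group consisted of 3 samples that carried Foxp3cre alone, and the sample titles call them WT. All mice were on the C57Bl/6 background, both groups carried the Cre allele, and CD4+CD25+ cells were separated magnetically with no treatment named. No age is stated for the mice. The samples are described as independent, without saying that each came from its own animal, so the p-values speak of the spread among these samples alone, and part of that spread may be technical.

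The values are log2 RMA values, 1 array a sample, so a difference of 1 is a doubling. Array medians ran from 5.38 to 5.46. The T cell genes Cd3e and Cd4 had means of 11.5 and 9.89 in p300-deleted and 11.4 and 9.21 in control arrays. Of the other T cell markers measured, Cd3d, Cd3g, Cd2 and Cd5 were also higher in p300-deleted arrays. Thy1, Trat1 and Cd28 were lower, at -0.23, -0.38 and -0.057. Il2ra, which encodes the CD25 of the separation, had means of 9.14 in p300-deleted and 8.89 in control arrays. Foxp3, the defining factor of Treg, was at 9.46 ± 0.16 (SD, n = 3) in controls but at 2.92 ± 0.31 (SD, n = 3) in p300-deleted arrays, below the limit of 3.91 used here for dim genes. By Foxp3 the p300-deleted samples went against the Treg label. Of the other 8 Treg markers 7 were at higher values in p300-deleted arrays, Ctla4 at 0.30 and Ikzf2 at 0.60 among them. Only Izumo1r of these passed, at 0.62 (adjusted p = 0.0459 in limma). Ikzf2 overlapped, control 3 at 5.68 lying above every p300-deleted array. Tnfrsf18 was lower, at -0.16 (adjusted p = 0.588 in limma). Il2ra is among the 7, but the cells were separated by the CD25 it encodes. These markers therefore do not settle whether the label holds. The annotation names no probe set for Ep300, which is not analysed here. In such bulk samples, fewer cells of a type and less RNA per cell cannot be told apart.

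Glycolysis splits glucose to pyruvate in the cytosol, and activated and dividing T cells run it fast and turn much of the pyruvate into lactate, which leaves through monocarboxylate transporters. The pentose phosphate pathway branches off at glucose 6-phosphate and supplies NADPH and ribose for nucleotides. In low oxygen the factor HIF, whose alpha subunit is encoded by Hif1a, escapes the prolyl hydroxylases, binds its response elements and raises most glycolytic genes together with genes of other functions, and p300 and its relative CBP are known coactivators of HIF. Treg are known to lean less on glycolysis than effector T cells do.

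Of the 31 tested members, 1 fell, 0 rose and 30 did not pass at an adjusted p under 0.05 (limma over all 8675 genes, Benjamini-Hochberg), against 0.726% of all genes called lower and 0.991% called higher. The member that fell was Slc16a1, the monocarboxylate transporter MCT1, to 58.2% of the control level. At an unadjusted p under 0.05, 8 members were lower (25.8%, against 9.89% of all genes) and 0 were higher (against 8.21%). All 3 p300-deleted arrays lay below all 3 controls for 12 members (38.7%, against 13.2% of all genes), and above them for 0 (against 10.5%). Of the 31 differences 23 were negative, with a median of -0.17, where 55.0% of all tested genes were negative with a median of -0.026.

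The sequences before the gene starts are shown for the gene that fell, for the glycolytic enzyme with the most negative value, for the lactate dehydrogenase subunit with separate groups and for the hypoxia gene with the highest value, because HIF reads a short core there. They are the 250 bases before the start in RefSeq, build GRCm38.p6, read on the strand of the gene, with matches to the HIF response core ACGTG or GCGTG on either strand in capitals. A match to the E-box CACGTG holds ACGTG on both strands and is counted as 2.
Slc16a1, chr3:104638414-104638663, plus strand, 4 matches: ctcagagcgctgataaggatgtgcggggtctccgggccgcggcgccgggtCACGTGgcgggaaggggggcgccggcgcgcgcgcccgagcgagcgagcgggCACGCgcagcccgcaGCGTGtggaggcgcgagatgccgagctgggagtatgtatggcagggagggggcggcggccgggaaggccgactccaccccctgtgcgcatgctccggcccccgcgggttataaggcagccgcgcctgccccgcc
Tpi1, chr6:124814159-124814408, minus strand, 0 matches: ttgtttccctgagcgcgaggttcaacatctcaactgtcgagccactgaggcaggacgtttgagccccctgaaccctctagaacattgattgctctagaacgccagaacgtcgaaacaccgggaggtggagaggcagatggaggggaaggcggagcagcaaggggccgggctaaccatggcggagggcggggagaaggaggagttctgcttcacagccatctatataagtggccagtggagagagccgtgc
Ldha, chr7:46845554-46845803, plus strand, 5 matches: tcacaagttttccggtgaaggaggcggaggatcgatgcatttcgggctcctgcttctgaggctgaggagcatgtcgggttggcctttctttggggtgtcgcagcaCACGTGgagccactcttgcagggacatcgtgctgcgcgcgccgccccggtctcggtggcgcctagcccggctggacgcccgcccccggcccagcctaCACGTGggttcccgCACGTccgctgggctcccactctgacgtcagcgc
Bnip3, chr7:138909507-138909756, minus strand, 5 matches: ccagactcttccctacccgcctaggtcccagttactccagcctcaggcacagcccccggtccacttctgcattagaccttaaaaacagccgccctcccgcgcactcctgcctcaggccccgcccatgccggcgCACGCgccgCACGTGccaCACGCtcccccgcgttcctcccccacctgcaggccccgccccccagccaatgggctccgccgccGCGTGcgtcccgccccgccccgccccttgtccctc
Ldha has a second start in RefSeq, whose window (chr7:46846832-46847081) held 1 match. Slc16a1, which fell, and Bnip3, at a positive value, both held the core, and Tpi1 did not in this window. Windows were found for 36 of the 38 members, 50 in all with alternative starts. The core was in 39 of the 50 (78.0%), in 22 of 28 windows of glycolytic enzymes and in 8 of 10 of the hypoxia group. Some windows of Eno1, Aldoa and Pfkm overlap each other and share matches, so these counts are of windows and not of separate sites. The E-box was in 5 of the 50 (10%), against 6.02% of all windows. The core was in 38.6% of all 32851 windows and 44.0% of the 21263 windows of protein-coding genes. The windows differ in base composition, with a mean of 61.0% G and C in members and 55.5% in protein-coding genes, and a match to 5 letters is not a binding site.

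**Figure D1:**
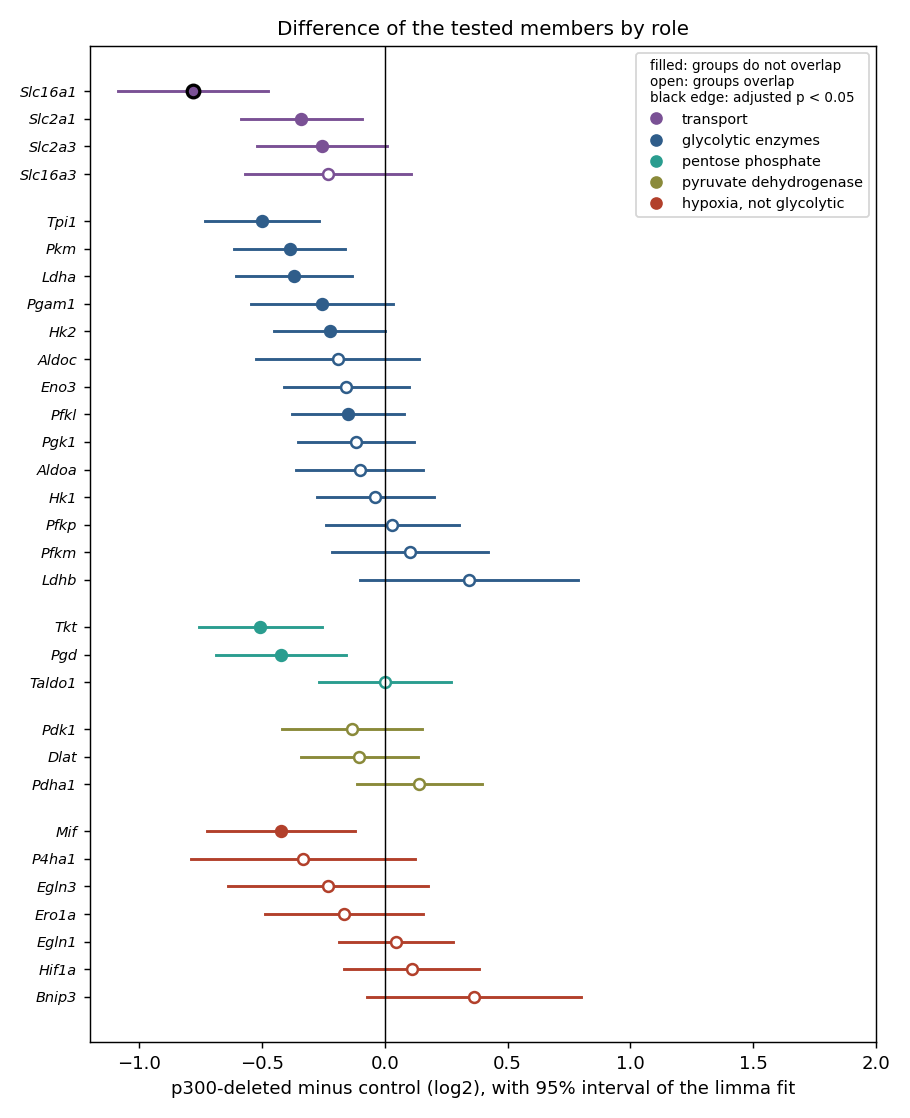
Difference between p300-deleted and control arrays on the log2 scale for the 31 tested members, grouped by role, with the 95% interval of the limma fit; filled points mark groups that do not overlap and the black edge the 1 gene with an adjusted p under 0.05. Slc16a1 at -0.78 lies farthest to the left, the filled points are all on the lower side, and Bnip3 (0.36) and Ldhb (0.34) lie farthest to the right with intervals that include 0.

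Genes that carry fuel and lactate across the membrane had negative differences for 4 of 4 genes (against 55.0% of all genes). Only Slc16a1 passed, where 0.726% of all genes were called lower, and 3 of the 4 were lower without overlap (against 13.2%). For Slc16a3 the p300-deleted mean of 3.87 was below the limit for dim genes, so that it was tested only through its level in controls. MCT1 moves lactate and pyruvate together with a proton in either direction. Slc16a1 read 8.31, 8.40 and 8.21 in controls, against 7.47, 7.33 and 7.77 after p300 deletion. All p300-deleted arrays were below all controls, p300-deleted 3 being the nearest to them. The means were 7.52 ± 0.22 and 8.30 ± 0.10 (SD, n = 3 each), which makes a fall of -0.78 (SE 0.13, 95% interval -1.08 to -0.48, adjusted p = 0.0390 in limma). The call depended on single arrays: the adjusted p was 0.0921 without p300-deleted 1, 0.141 without p300-deleted 2, 0.139 without control 1 and 0.0653 without control 2. It was 0.135 with the 18S ribosomal RNA control as a covariate and 0.0643 when the same probe set was fitted among all single-symbol probe sets. Over all genes, calls also fell, from 63 lower and 86 higher to 5 and 4 without control 1. With the 18S covariate they were 5 and 10. Slc16a1 stayed at -0.78 without control 1. The value of Slc16a1 itself stayed between -0.90 and -0.66 under all 16 alternatives run for the gene. Some of these cannot move it: the filters, the trended variance, the block, the refit of the same probe set and, with 1 probe set, the mean of probe sets.

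Slc2a1 encodes GLUT1, the main glucose importer of activated T cells. Its values were 8.18, 8.23 and 8.18 in p300-deleted and 8.47, 8.70 and 8.44 in control arrays, with no overlap. The difference was -0.34 (SE 0.11, adjusted p = 0.158), and 2 further probe sets of the gene were at -0.29 and -0.42. Slc2a3, the high-affinity importer GLUT3, read 10.49, 10.31 and 10.22 against 10.72, 10.51 and 10.55. Its groups did not overlap either, although p300-deleted 1 lay close under control 2, and its difference was -0.26 (SE 0.12, adjusted p = 0.294), or -0.11 with the mean of its probe sets. That mean takes in probe sets below the dim limit, at 2.73 and 2.37 over the arrays. The other probe set above the limit was at -0.33 without overlap. Slc16a3, the lactate exporter MCT4, was close to the dim limit at 3.82 to 3.96 against 3.78 to 4.27, with overlap and a difference of -0.23 (adjusted p = 0.464), which was -0.030 with array weights.

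**Figure D2:**
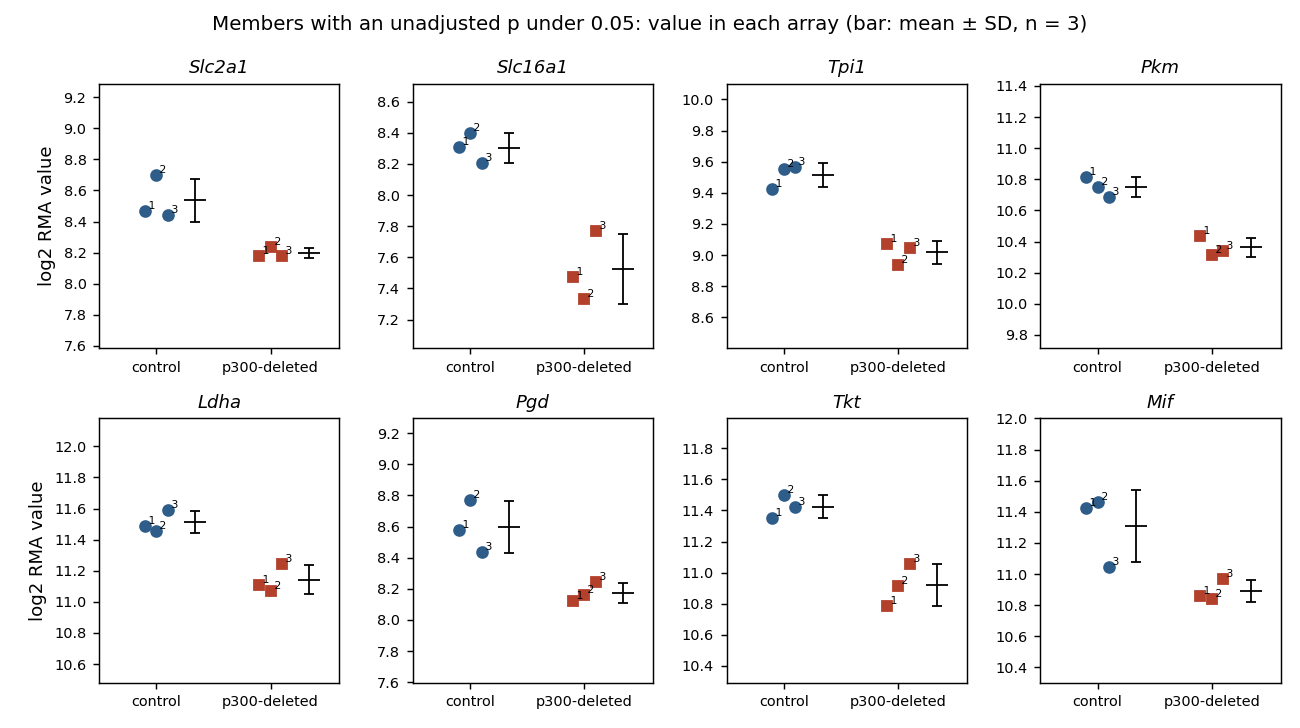
Log2 RMA value in each array (vertical axis, each panel spanning the same range of 1.7) for the 8 members with an unadjusted p under 0.05; circles are controls, squares p300-deleted arrays, digits the replicate number, and bars the mean ± SD of 3 arrays. In all 8 panels the squares lie below the circles, and for Mif control 3 (11.05) lies nearer to the p300-deleted arrays than to the other controls.

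Among the glycolytic enzymes, from hexokinase to lactate dehydrogenase, 14 of 17 were tested and 0 passed in limma, with 3 lower at an unadjusted p under 0.05 (21.4%, against 9.89% of all genes). Of the 14, 11 had negative differences (78.6%, against 55.0%) and 6 were lower without overlap (42.9%, against 13.2%). The median was -0.15. Tpi1, triose phosphate isomerase, which interconverts the 3-carbon sugars, had the most negative value. It read 9.07, 8.94 and 9.04 in p300-deleted and 9.43, 9.55 and 9.57 in control arrays. Every p300-deleted array lay below every control, with little spread within either group, and the difference was -0.50 (SE 0.10, 95% interval -0.73 to -0.27, adjusted p = 0.0517 in limma), or 70.8% of the control level. Its 3 probe sets were at -0.50, -0.46 and -0.53. Tpi1 lay past the threshold under 3 of 16 alternatives (the dimmest 50% of genes left out, trended variance, array weights), with adjusted p from 0.0176 to 0.261 over all of them.

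Pkm, pyruvate kinase, which makes pyruvate in the last step of glycolysis, read 10.43, 10.32 and 10.34 in p300-deleted arrays against 10.81, 10.75 and 10.68 in controls. The groups were well apart, at a difference of -0.39 (SE 0.10, adjusted p = 0.0931). The annotation does not say which splice forms its 1 probe set reads. Pgam1, phosphoglycerate mutase, read 8.08, 7.98 and 7.94 against 8.19, 8.09 and 8.49. P300-deleted 1 lay just under control 2, so that the groups barely separated, with a difference of -0.26 (SE 0.13, adjusted p = 0.334). It was -0.14 without control 3 and -0.39 with the 18S covariate.

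At the entry of the pathway, hexokinase traps glucose in the cell by phosphorylation. Hk2, the inducible form, was dim to moderate at 5.88, 5.77 and 5.85 against 6.09, 5.98 and 6.10. Its groups did not overlap, and its difference was -0.22 (SE 0.10, adjusted p = 0.283). Hk1, the constitutive form, was at 8.83 to 8.98 against 8.87 to 9.06, a difference of -0.038 (SE 0.11, adjusted p = 0.890), and its second probe set was at 0.18. Phosphofructokinase commits sugar to glycolysis and has 3 subunit genes. Pfkl, the liver form, read 8.002, 8.10 and 7.998 in p300-deleted arrays against 8.18, 8.26 and 8.11. The groups came close without overlap, at a difference of -0.15 (SE 0.10, adjusted p = 0.485). The other subunits overlapped. Pfkm was at 6.64 to 6.83 against 6.44 to 6.88 and Pfkp at 8.83 to 8.91 against 8.67 to 9.04, with differences of 0.10 for Pfkm (adjusted p = 0.750) and 0.031 for Pfkp (adjusted p = 0.924). The 95% intervals of Pfkm, -0.21 to 0.42, and Pfkp, -0.24 to 0.30, include differences of either sign.

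The middle steps gave small differences. Aldolase cleaves the 6-carbon sugar. Aldoa was at 10.49 to 10.71 in p300-deleted and 10.59 to 10.83 in control arrays (-0.10, adjusted p = 0.692) and Aldoc at 5.05 to 5.37 against 5.14 to 5.58 (-0.19, adjusted p = 0.547). Pgk1, phosphoglycerate kinase and a standard HIF target, read 10.27 to 10.33 against 10.30 to 10.52. It had a difference of -0.12 (SE 0.10, adjusted p = 0.611) with overlapping groups, and its 2 further probe sets, at -0.23 and -0.17, did not overlap. Eno3, the muscle enolase, was at 7.80 to 8.03 against 7.999 to 8.20 (-0.16, adjusted p = 0.517). Gapdh, glyceraldehyde 3-phosphate dehydrogenase, was read only by control probe sets against the 3' end, middle and 5' end of its transcript. The 3' probe set read 12.05, 11.92 and 12.09 against 12.30, 12.19 and 12.33, which do not overlap, a difference of -0.25 (exact permutation test over the 6 arrays, two-sided p = 0.1, the smallest that 3 against 3 can give). The middle probe set was at -0.14 and the 5' probe set at -0.0050, both with overlap.

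Lactate dehydrogenase converts pyruvate to lactate and back. The A subunit favours lactate formation and the B subunit the return to pyruvate. Ldha read 11.11, 11.07 and 11.25 in p300-deleted and 11.49, 11.45 and 11.59 in control arrays. The groups did not overlap, and the difference was -0.37 (SE 0.10, adjusted p = 0.116), or 77.4% of the control level. Ldhb read 8.66, 8.79 and 8.88 against 8.45, 8.84 and 8.001. Control 3 was low and control 2 reached the p300-deleted level, so that the difference of 0.34 (SE 0.19, adjusted p = 0.400) was within the spread of the controls. It was 0.13 without control 3, 0.55 without control 2 and 0.59 with the 18S covariate. The 4 probe sets of Ldhb were at 0.34, 0.43, 0.39 and 0.54, and only the last, the dimmest of them, had groups that did not overlap.

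In the pentose phosphate pathway 3 of 4 genes were tested, 0 passed in limma and 2 were lower at an unadjusted p under 0.05 (66.7%, against 9.89% of all genes). Tkt, transketolase, which exchanges carbon between the pathway and glycolysis, read 10.79, 10.91 and 11.06 in p300-deleted and 11.35, 11.50 and 11.42 in control arrays. P300-deleted 3 was the nearest to the controls and still below all of them, and the difference was -0.51 (SE 0.11, 95% interval -0.76 to -0.25, adjusted p = 0.0644), or 70.4% of the control level. A second probe set was at -0.45. Pgd, 6-phosphogluconate dehydrogenase, which makes NADPH, read 8.12, 8.16 and 8.24 against 8.58, 8.77 and 8.44. Its groups did not overlap for any of its 4 probe sets, which were at -0.42, -0.40, -0.49 and -0.42, and the adjusted p was 0.112. Taldo1, transaldolase, stood at 9.40 to 9.69 against 9.44 to 9.67, a difference of 0.00090 (SE 0.12, 95% interval -0.27 to 0.27, adjusted p = 0.997). Tkt passed under 2 of 16 alternatives (trended variance and array weights) and Pgd under 1 (array weights).

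Pyruvate enters the mitochondrion and is oxidised by the pyruvate dehydrogenase complex. For the 3 genes of this step 0 passed in limma, 0 had an unadjusted p under 0.05, and all 3 overlapped between groups. Most genes on the array did the same: 6619 of 8675 overlapped, and only 9.89% were lower and 8.21% higher by that p. These counts therefore do not set the step apart from other genes. Pdk1, the kinase that switches the complex off and is itself a HIF target, read 8.62, 8.55 and 8.83 against 8.83, 8.94 and 8.64. Only p300-deleted 3 reached the middle control array, and the difference was -0.13 (SE 0.12, adjusted p = 0.628). Pdha1, the catalytic alpha subunit, read 9.49 to 9.56 against 9.21 to 9.49 (0.14, adjusted p = 0.560) and Dlat, the acetyltransferase core, 6.88 to 7.05 against 6.98 to 7.14 (-0.10, adjusted p = 0.657), each with a further probe set of the other sign.

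Among genes of the hypoxia response that are not glycolytic, 7 of 10 were tested, 0 passed in limma and 1, Mif, was lower at an unadjusted p under 0.05 (14.3%, against 9.89% of all genes). Hif1a itself read 10.58, 10.55 and 10.51 in p300-deleted and 10.49, 10.23 and 10.60 in control arrays. The groups overlap, with a difference of 0.11 (SE 0.12, 95% interval -0.16 to 0.38, adjusted p = 0.682). It was 0.0033 without control 2, 0.19 without control 3 and 0.020 with the 18S covariate. Of the prolyl hydroxylases that mark HIF for destruction, Egln1 (PHD2) was at 8.46, 8.66 and 8.64 against 8.54, 8.55 and 8.53, a difference of 0.046 (SE 0.10, adjusted p = 0.857). Egln3 (PHD3), an oxygen-regulated member of the family, was at 5.99 to 6.22 against 6.03 to 6.73 and at a difference of -0.23 (adjusted p = 0.554). This was -0.023 without control 3, -0.066 with array weights and -0.46 with the 18S covariate, and a second probe set was at -0.22 without overlap.

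Mif, the cytokine macrophage migration inhibitory factor, read 10.86, 10.84 and 10.97 in p300-deleted and 11.42, 11.46 and 11.05 in control arrays. The groups did not overlap, but control 3 lay just above the highest p300-deleted array. The difference was -0.42 (SE 0.13, adjusted p = 0.153), and it passed with array weights and without control 3 (-0.55, adjusted p = 0.0433), while with the 18S covariate it was -0.24 (adjusted p = 0.498). Bnip3, which marks mitochondria for autophagy and is a HIF target, read 6.75, 7.07 and 6.74 against 6.22, 6.92 and 6.33. Control 2 stood above 2 of the p300-deleted arrays, and the difference was 0.36 (SE 0.19, 95% interval -0.072 to 0.80, adjusted p = 0.363). It was 0.58 without control 2 (adjusted p = 0.0867) and 0.23 without control 1.

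P4ha1, a prolyl hydroxylase of collagen, was at 6.59, 6.90 and 7.20 against 7.51, 7.32 and 6.86. Both groups spread widely, and the difference was -0.33 (SE 0.20, adjusted p = 0.430), with values from -0.52 to -0.11 over 16 alternatives. Ero1a, which forms disulfide bonds in the endoplasmic reticulum, read 7.51 to 8.02 against 7.81 to 7.99 and was at -0.17 (adjusted p = 0.598) by its brightest probe set and at -0.55 and 0.21 by its others. The groups did not overlap for the probe set at -0.55, and they overlapped for the one at 0.21, the dimmest. Vegfa, the vascular growth factor, lay at 2.60 to 2.86 against 2.77 to 2.91 by its brighter probe set, below the limit for dim genes in every array, so no change could be measured.

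Glycolytic enzymes and non-glycolytic hypoxia genes had medians of -0.15 and -0.17. The difference between these groups of genes was not tested, and the counts below describe it. Groups did not overlap for 6 of 14 glycolytic enzymes (42.9%) and for 1 of 7 hypoxia genes (14.3%), against the 13.2% of all genes that were lower without overlap. Differences were negative for 11 of 14 and 4 of 7. The hypoxia median rests on the middle gene of 7 that run from -0.42 to 0.36. It was -0.039 without p300-deleted 2 and -0.023 without control 3. The glycolytic median stayed between -0.19 and -0.11 under all 15 alternatives. Among these, keeping the dim genes, the trended variance and the block cannot move either median. Relative to each gene's mean over the 6 arrays, the median glycolytic enzyme was at -0.080, -0.083 and -0.066 in p300-deleted and 0.14, 0.14 and -0.0027 in control arrays. The median hypoxia gene was at 0.020, -0.17 and 0.018 against -0.0022, -0.012 and -0.034, and these groups overlap. By the mean over genes, however, the hypoxia group was at -0.066, -0.059 and -0.011 against 0.037, 0.078 and 0.021, without overlap. The glycolytic enzymes did not overlap by either measure.

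The glycolytic minus the hypoxia value within each array was -0.10, 0.086 and -0.084 in p300-deleted and 0.14, 0.15 and 0.031 in control arrays when medians were used, with overlap. With means it was -0.018, -0.033 and -0.029 against 0.067, 0.015 and -0.0022, without overlap. Whether the arrays separate thus depends on this choice, and no p is given since the members were chosen with results known. The transport group and the pentose phosphate group, by the same median, lay at -0.17 to -0.16 and -0.27 to -0.14 in p300-deleted arrays and at 0.18 to 0.30 and 0.054 to 0.33 in controls.

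**Figure D3:**
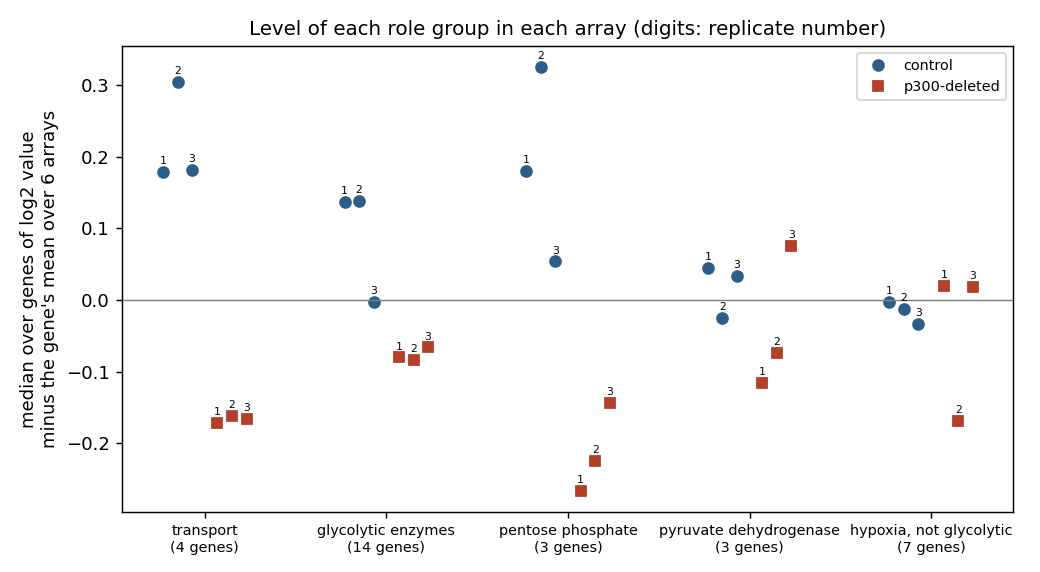
Median over the genes of each role of the log2 value minus the gene's mean over the 6 arrays (vertical axis), for control arrays (circles) and p300-deleted arrays (squares), with digits for the replicate number. Transport genes, glycolytic enzymes and pentose phosphate genes show squares below circles without overlap, control 3 being the lowest control for glycolytic enzymes (-0.0027), and the pyruvate dehydrogenase and hypoxia groups overlap. By means instead of medians, not drawn here, the hypoxia group did not overlap.

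Further probe sets gave a second reading of many members. Of 30 further probe sets above the limit for dim probe sets, 24 had the sign of the one used and 6 the opposite sign. The 6 belonged to Hk1, Pdha1, Dlat, Hif1a, Egln1 and Ero1a, and none of these genes had groups that were apart by the probe set used. For Slc2a1, Tpi1, Pgd, Tkt and Ldhb all tested probe sets had 1 sign. Probe sets of a gene share its RNA and are not replicates.

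**Figure D4:**
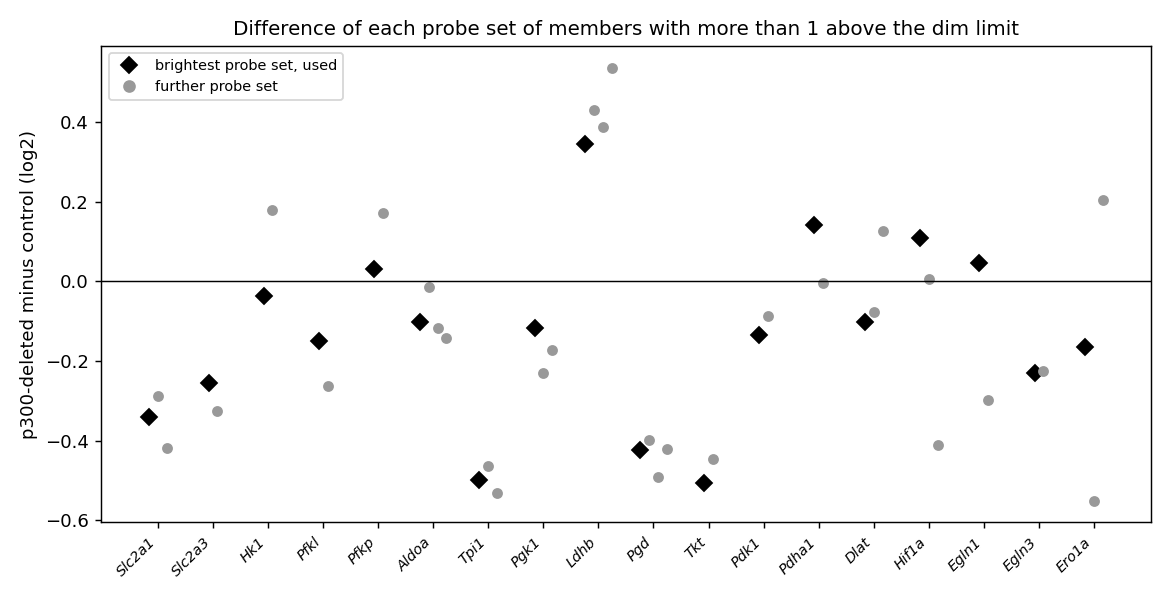
Difference between p300-deleted and control arrays on the log2 scale for each probe set above the dim limit, for the members with more than 1 of them; diamonds are the brightest probe sets, used for the gene, and grey circles the others. The probe sets of Tpi1, Pgd and Tkt cluster between -0.53 and -0.40, those of Ldhb between 0.34 and 0.54, and those of Hif1a and Ero1a spread on both sides of 0. The negative one of Hif1a is the dimmest of its probe sets shown, with a mean of 4.24.

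Other genes of these pathways, from a wider list of 81 of which 53 were tested, gave 1 gene that fell, 0 that rose and 52 that did not pass in limma. At an unadjusted p under 0.05 there were 6 lower (11.3%, against 9.89% of all genes) and 3 higher. The median was -0.042, and 7 were lower without overlap (13.2%, the same share as of all genes). These pooled counts lie near the background, but the roles differed. Lower without overlap were 1 of 12 other glycolysis genes (8.33%) and 5 of 23 other hypoxia genes (21.7%). That order is the reverse of the one among the members, and it was not tested. Of 5 other transport genes 2 were negative and 3 positive. The gene that fell was Adm, adrenomedullin, a vasodilator peptide and HIF target. It read 3.89, 3.82 and 3.98 in p300-deleted and 4.75, 4.76 and 4.83 in control arrays. The groups were far apart relative to their spread, but the p300-deleted mean of 3.90 lay below the limit for dim genes, so that Adm was tested only through its level in controls. Adm fell by 0.88 (SE 0.10, adjusted p = 0.0100), with adjusted p of 0.0527 without p300-deleted 2, 0.0835 without control 1 and 0.0683 with the 18S covariate.

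Further HIF targets of that list, the carbonic anhydrases Car9 and Car12, which handle acid, were at -0.30 each (adjusted p = 0.192 and 0.265). Car9 was close to the dim limit, with means of 3.99 in p300-deleted and 4.29 in control arrays. Cited2, a protein that competes with HIF for p300 and CBP, read 9.25, 9.09 and 9.24 in p300-deleted and 9.45, 9.44 and 9.38 in control arrays. Its groups did not overlap, at a difference of -0.23 (adjusted p = 0.273). Angptl4, a lipase inhibitor, was at -0.54 (adjusted p = 0.211), while Ddit4, an inhibitor of mTOR complex signalling that hypoxia and other stresses raise, was at 0.46 (adjusted p = 0.246). For both Angptl4 and Ddit4 the groups overlapped. Bsg, basigin, the chaperone that brings MCT1 and MCT4 to the cell surface, read 9.36, 9.20 and 9.06 against 8.74, 8.62 and 8.97. These groups did not overlap, at a difference of 0.43 (SE 0.13, adjusted p = 0.140), opposite in sign to Slc16a1. In the pentose phosphate branch, Tktl1, a transketolase-like gene, was at -0.42 (adjusted p = 0.186) and Prps1, which makes the ribose donor of nucleotides, at 0.24 (adjusted p = 0.268).

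Several features of the samples moved with the groups, and their part in the results above was not tested. The summed log2 value of 11 of 12 listed proliferation markers was 70.9 to 76.5 in p300-deleted and 79.7 to 90.3 in control arrays, with 4 of them called lower. Sums of 7 of 9 plasma cell markers (59.2 to 63.0 against 53.6 to 54.3), 8 of 8 mast cell and basophil markers (43.8 to 49.1 against 35.7 to 37.6) and 14 of 15 myeloid markers (74.7 to 96.6 against 62.3 to 70.8) were higher in p300-deleted arrays without overlap. Of these, 5 plasma cell, 6 mast cell and 0 myeloid markers were called higher, and Ms4a2, Cd14 and Itgam were among the dim genes. The sums overlapped for B cells (7 of 8 markers, 36.2 to 39.2 against 37.7 to 38.8, Pax5, Fcer2a and Cr2 dim), NK cells (6 of 7, 40.5 to 43.4 against 36.7 to 40.8, with Gzma called higher) and erythroid cells (6 of 10, 21.1 to 22.3 against 21.4 to 23.2, Hba-a1, Epb42, Klf1 and Hemgn dim). The sum of 9 of 9 Treg markers was 79.2 to 79.9 against 83.2 to 84.5, with Foxp3 called lower and Izumo1r higher. Without Foxp3, a choice made after seeing the data, the sum of the other 8 was 76.1 to 76.7 against 73.8 to 75.1. The sum of 9 of 10 T cell markers was 97.6 to 98.1 against 95.7 to 97.3, and that of 2 of 2 CD8 markers 10.7 to 11.1 against 10.4 to 10.5. The 18S control was at 7.74 to 9.47 in p300-deleted and 5.68 to 8.69 in control arrays. Its values went in part with the groups, so the 18S fits given above cannot tell the 18S control and p300 deletion apart. The 3' minus 5' difference of Gapdh, a sign of RNA quality, was 0.057 to 0.14 against 0.21 to 0.59.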

How the data were processed

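RNA of 6 samples, 3 p300-deleted and 3 control, was hybridised to 1 array each. Values for every probe set were deposited on the log2 scale. The submitters' processing notes name RMA without a version. RMA brings arrays to a common distribution and compresses dim signals, so a shift of all transcripts together is lost. The number of arrays limits the precision.

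Of 22690 probe sets, 64 controls were left out. The annotation gave 1 symbol for 20380 of the rest, several for 691 and none for 1555. Genes were checked by gene ID against RefSeq (GRCm38.p6), with 0 symbols changed. The brightest probe set stood for each of 12393 genes, and the dimmest 30% (3718 genes, means below 3.91) were left out. The other 8675 were tested two-sided in limma 3.58.1 (lmFit, then eBayes; R 4.3.3). The design held the group alone, and p-values were adjusted by Benjamini-Hochberg over all of them. On data simulated for this comparison over 8675 genes, 27.2% of genes changed by 0.5 and 80.6% of those changed by 1 were recovered, and 5.02% of calls were false. The simulated noise was independent for every gene and array, with 200 genes changed a run. These shares may therefore not hold for the real arrays. Members, roles, gene lists and tests were chosen with earlier results of these data known. Every member measured is reported, with each array's value where it passed, had an unadjusted p under 0.05 or had groups that did not overlap, and in ranges otherwise. Of the other pathway genes, those with an unadjusted p under 0.05 are named. Alternatives were the filter on dim genes, 2 further normalizations, the mean of all probe sets, single probe sets, array weights, a variance fitted with trend and robustly, a block for the replicate number, the 18S control as a covariate and leaving out each array.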

Additional observations from a re-analysis of the deposited data

How the results depend on the processing

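The number of members past the threshold, 1 in the fit reported, was 2 with the dimmest 50% of genes left out, 3 with a trended and robust variance, 8 with array weights, 0 with the 18S covariate and from 0 to 2 when single arrays were left out. With the replicate number as a block it was 0, with Slc16a1 at an adjusted p of 0.0703. Deviations of same-numbered arrays correlated at -0.0741, 0.123 and -0.12, so the numbers are not taken to pair the samples. The 8 with array weights were Slc16a1, Tpi1, Pkm, Ldha, Pgd, Tkt, Mif and, at 0.58, Bnip3. Over all genes 63 were called lower and 86 higher, with array weights 554 and 465, with the mean of all probe sets 37 and 58, with the block 42 and 56, with the 18S covariate 5 and 10, and without single arrays from 5 to 91 lower and from 4 to 139 higher. The median of the non-glycolytic hypoxia genes was -0.066 with array weights and from -0.22 to -0.023 when single arrays were left out. Signs turned only for members that did not pass, and the cause was not tested. With the mean of all probe sets Hk1 was at 0.071, Hif1a at -0.093 and Egln1 at -0.13. With the 18S covariate Hk1 was at 0.013, Aldoa at 0.0092 and Pdk1 at 0.0020. With array weights Pfkm was at -0.082 and Pfkp at -0.096, and with median centring Taldo1 was at -0.022. Without single arrays Hk1 ran from -0.077 to 0.018, reaching 0.00091 without p300-deleted 1, Pfkp was at -0.053 without control 2, and Taldo1 ran from -0.068 to 0.078, being at -0.068, -0.0077, -0.0055 and -0.054 without p300-deleted 1, p300-deleted 2, control 1 and control 3. Single probe sets of the other sign were at 0.18 for Hk1, -0.0038 for Pdha1, 0.13 for Dlat, -0.41 for Hif1a, -0.30 for Egln1 and 0.21 for Ero1a. That of Hif1a was dim, with a mean of 4.24 against 10.49 for the one used, and its groups overlapped. A brighter further probe set of Hif1a, with a mean of 7.99, was at 0.0071. The other 23 tested members kept their sign under every fit run for them other than single probe sets. Fits that change only the filter, the variance or the block cannot turn a sign. In the simulated data, with 3 arrays a group and independent noise, differences of 0.5 mostly went unrecovered.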
